A study of Mus musculus with 24 samples.

Results

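The nuclear genes of the mitochondrial respiratory chain were examined in cultured neural stem and progenitor cells of the embryonic mouse brain. Members were the gene entries whose symbols begin with Nduf, Uqcr, Cox4 to Cox8 or Atp5, or are Sdha to Sdhd, without pseudogene symbols, at 1 or more RPM (reads-per-million) in at least 3 of the 6 libraries of a table. Of 38920 gene entries 93 had such a symbol, 86 passed the level in at least 1 of the 4 tables and 85 passed it in all 4. By symbol they were 36 subunits of complex I, 4 of complex II, 8 of complex III, 14 of complex IV, 15 of complex V, and 9 assembly or other proteins, with Ndufa4 counted to complex IV, where its protein is now placed. The level filter did not use the treatment label, though a gene near the level could have passed through 1 group alone. The gene set itself was chosen with earlier results of these data known, so the tests are not independent of that choice. Just inside stood Cox7a1, the contractile-muscle form of a complex IV subunit, at 0.484 to 1.56 RPM, which passed in every table but that of male hypothalamus. Just outside stood Cox8b, Cox8c, Cox6a2, Ndufa4l2, Cox4i2, Cox7b2 and Atp5l2, most of them tissue-restricted isoforms, of which Cox8b reached 0.98 RPM and Atp5l2 0.156 RPM in their highest library.

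Cells of the cerebral cortex or the hypothalamus were taken from mouse embryos at embryonic day 14.5 and grown as neurospheres, floating aggregates that enrich for dividing stem and progenitor cells. At passage 3 the cultures received 100 nM dexamethasone, a synthetic glucocorticoid that activates the glucocorticoid receptor, or ethanol vehicle for 4 h. The 8 groups were female cortex, male cortex, female hypothalamus and male hypothalamus, each with dexamethasone and with ethanol, at 3 biological replicates and 24 libraries of total RNA in all. The labels give no strain and do not say whether a replicate was 1 embryo, a litter or a pool, so p-values measure the spread between these samples, and neurospheres lack the vessels and most of the neurons of the tissue.

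The respiratory chain passes electrons from NADH (complex I) and succinate (complex II) through complex III to oxygen at complex IV, and complex V, the ATP synthase, uses the proton gradient to make ATP. Complex II is encoded wholly in the nucleus, whereas the other complexes combine nuclear subunits with a few made from mitochondrial DNA. Nuclear respiratory factor 1 (NRF1), the ETS factor GABP and YY1 are known activators of the nuclear genes, and the co-activators of the PGC-1 family act on these factors.

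Depth, as megareads (M) assigned to genes, was 16.39 to 20.94 M in the 12 libraries from cortex and 16.04 to 25.49 M in the 12 from hypothalamus, but the share of mt-Rnr2, a ribosomal RNA of mitochondria, was 1.09% to 2.67% in cortex and 21.3% to 40% in hypothalamus. Brain region and library composition moved together and cannot be told apart. On a scale shared by all libraries (RPM scaled by TMM over the 24 libraries, here called the common scale), the progenitor genes Nes and Sox2 stood at 435 RPM or more and 204 RPM or more in every library. The forebrain progenitor gene Lhx2 was at 16.9 to 34.5 RPM in cortex and at 0.317 to 7.1 RPM in hypothalamus, but the cortical gene Emx1 and the hypothalamic genes Rax and Nkx2-1 did not exceed 0.4 RPM in either region. Summed markers of vascular and contractile cells (8 genes) stood at 5.31 to 13.5 RPM in cortex and 44.9 to 110 RPM in hypothalamus. In cortex the summed neuronal markers (6 genes) stood at 619 to 785 RPM with ethanol and 835 to 1120 RPM with dexamethasone, and those of the oligodendrocyte lineage (7 genes) at 1100 to 1250 and 1460 to 1780 RPM. In bulk RNA a change in the share of a cell type and a change in RNA per cell cannot be told apart, and the part of these markers in the results below was not tested. The X-inactivation RNA Xist stood at 371 to 744 RPM in female libraries and at 0.175 to 0.632 RPM in male ones, except in replicate 2 of male hypothalamus (32.3 RPM with ethanol, 38.1 RPM with dexamethasone), while its Y-linked Ddx3y (81.6 and 103 RPM) lay within the range of the other male libraries (51.5 to 111 RPM; at most 0.19 RPM in females). The counts of called members that include this culture, as fitted without a block, are also given without it.

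Levels per kilobase of transcript differed between the complexes. In vehicle libraries of cortex, on the common scale, the median level per kilobase was 209 RPM for complex IV subunits, 176 for complex III, 169 for complex V, 99.5 for complex II, 82.9 for complex I and 9.6 for the assembly proteins. In hypothalamus the same medians were 191, 137, 187, 111, 70.2 and 12.6 RPM per kilobase, so complex I and the assembly proteins were lowest in both regions. Atp5b, the catalytic beta subunit of the ATP synthase, ranked first in both regions, at 869 ± 135 RPM per kilobase in cortex and 844 ± 45.5 in hypothalamus (SD, n = 6), and the regions did not differ beyond this spread. Cox4i1, the ubiquitous form of a complex IV subunit, ranked 2 at 484 ± 30.7 RPM per kilobase in cortex and stood at 429 ± 43.6 in hypothalamus, where it ranked 4.

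Promoter sequences of the genes on which the results turn are shown because several members moved together and because the motifs of the known activators can be read from them. RefSeq (GRCm38.p6) held a window of 250 bases before and 50 after the annotated start for 74 of the 86 members, and the 250 upstream bases of 6 are printed 5′ to 3′ on the strand of the gene, with searched motifs in capitals. Ndufc2 rose in cortex and hypothalamus, Sdha rose in cortex, Ndufs3 rose in cortex, Sdhd rose in hypothalamus, and Ndufaf4 and Cox5a differed between regions. In Sdha and Ndufs3 the GENCODE start lies upstream of the RefSeq start, so the last bases printed are transcribed in that annotation.
Ndufc2, chr7:97399753-97400002, plus strand: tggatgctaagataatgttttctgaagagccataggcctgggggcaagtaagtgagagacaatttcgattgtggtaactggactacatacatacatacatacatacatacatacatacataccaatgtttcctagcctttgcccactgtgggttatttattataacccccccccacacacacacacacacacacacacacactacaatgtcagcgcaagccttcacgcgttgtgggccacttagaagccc
Sdha, chr13:74350241-74350490, minus strand: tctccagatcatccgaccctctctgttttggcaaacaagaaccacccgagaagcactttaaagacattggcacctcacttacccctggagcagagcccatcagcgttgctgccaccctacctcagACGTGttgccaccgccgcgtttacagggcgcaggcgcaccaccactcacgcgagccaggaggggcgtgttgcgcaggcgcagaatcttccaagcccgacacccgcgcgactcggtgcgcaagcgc
Ndufs3, chr2:90904722-90904971, minus strand: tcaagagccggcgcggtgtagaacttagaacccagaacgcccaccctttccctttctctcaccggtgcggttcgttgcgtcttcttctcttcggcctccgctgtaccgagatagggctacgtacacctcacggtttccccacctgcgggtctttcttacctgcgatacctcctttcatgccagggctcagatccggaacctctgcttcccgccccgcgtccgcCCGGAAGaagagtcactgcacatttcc
Sdhd, chr9:50603850-50604099, minus strand: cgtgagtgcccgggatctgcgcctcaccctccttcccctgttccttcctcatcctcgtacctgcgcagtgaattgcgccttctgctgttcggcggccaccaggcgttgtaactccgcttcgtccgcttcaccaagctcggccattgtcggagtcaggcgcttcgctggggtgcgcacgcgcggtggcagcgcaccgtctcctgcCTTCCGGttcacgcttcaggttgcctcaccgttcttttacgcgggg
Ndufaf4, chr4:24897833-24898082, plus strand: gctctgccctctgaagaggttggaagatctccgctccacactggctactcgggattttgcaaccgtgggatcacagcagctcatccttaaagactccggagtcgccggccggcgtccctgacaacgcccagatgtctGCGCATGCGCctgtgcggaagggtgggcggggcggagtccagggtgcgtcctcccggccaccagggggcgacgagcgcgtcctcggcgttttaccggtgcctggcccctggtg
Cox5a, chr9:57520982-57521231, plus strand: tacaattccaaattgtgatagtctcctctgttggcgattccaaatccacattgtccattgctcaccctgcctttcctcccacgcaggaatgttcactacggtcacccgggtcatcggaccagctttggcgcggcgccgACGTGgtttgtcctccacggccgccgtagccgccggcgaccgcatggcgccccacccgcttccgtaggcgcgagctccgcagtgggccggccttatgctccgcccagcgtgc
The capitals mark the ETS/GABP motif CCGGAAG or its reverse complement in Ndufs3 and Sdhd, overlapping matches to the NRF1 core GCATGCGC on both strands in Ndufaf4, and the hypoxia response element ACGTG in Sdha and Cox5a, while the Ndufc2 stretch held none of the motifs searched.

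Over the windows of 300 bases, both strands searched, the NRF1 core was present in 12 of 74 members (16.2%) against 3.05% of 27025 genes with a window. The ETS/GABP motif was present in 17 members (23%) against 9.93% of genes, and the YY1 motif AAGATGGCG in 8 members (10.8%) against 1.64%. The hypoxia response element, a short motif, was present in 19 members (25.7%) against 21.8%. The glucocorticoid response element core ACANNNTGT was found in 0 of the 74 windows and in 7.9% of all genes, which says only that these letters are not in these windows.

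Dexamethasone raised a small set of members in male cortex, most of them in complex I, the largest group. With limma on log2(RPM + 1), as in all comparisons here unless stated, 13 of 86 members rose past an adjusted p of 0.05 and no member fell, against 47.6% of all genes tested called in either direction and 26.7% called higher. The members' share of 15.1% lay below that background, and 21 of 86 had an unadjusted p under 0.05, against 54.4% of all genes. The called genes were 8 of 36 in complex I, 1 of 4 in complex II, 2 of 15 in complex V and 2 of 9 among assembly proteins. The median log2 change of the members was 0.09 (75 of 86 above 0), against 0.04 over all genes tested.

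Ndufc2, a membrane-arm subunit of complex I (chromosome 7, 97400003 to 97407802, GRCm38, protein-coding), stood at 252, 256 and 277 RPM with ethanol and at 333, 375 and 360 RPM with dexamethasone in male cortex. The groups did not overlap, and the log2 change was 0.44 ± 0.06 (SE), a 1.36-fold rise (limma adjusted p = 0.000241). Ndufs1, the largest subunit of the peripheral arm, which carries iron-sulfur clusters (chromosome 1, 63143596 to 63176833), went from 181, 202 and 193 RPM to 227, 253 and 252 RPM. This was a rise of 0.35 ± 0.06 on the log2 scale (limma adjusted p = 0.00126), with every treated library above every vehicle library. Exons of Eef1b2 and Ino80dos on the opposite strand cover 6.16% of its exon bases.

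Ndufaf7, a methyltransferase that acts in complex I assembly (chromosome 17, 78937136 to 78948052), rose from 19.6, 21.5 and 19.6 RPM to 24.8, 28.1 and 25.7 RPM in male cortex, by 0.36 ± 0.08 (limma adjusted p = 0.00403). Sdha, the flavoprotein of complex II that oxidises succinate (chromosome 13, 74322254 to 74350280), rose from 360, 374 and 370 RPM to 405, 432 and 443 RPM, by 0.21 ± 0.05 (limma adjusted p = 0.0064). In neither gene did the groups overlap. These 4 genes stood apart in how often they were called: Ndufc2, Ndufs1 and Ndufaf7 passed in all 18 alternative settings and left-out libraries, and Sdha in 17 of 18.

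The other called members passed in fewer of the alternatives. Ndufaf1, a complex I assembly factor, rose from a mean of 23 ± 0.699 to 27.6 ± 2.16 RPM (SD, n = 3; log2 change 0.25 ± 0.08, limma adjusted p = 0.0224) and Ndufv3, a small subunit of the NADH-binding module, from 72.5 ± 4.77 to 84.7 ± 3.7 RPM (0.22 ± 0.06, limma adjusted p = 0.015). Atp5a1, the alpha subunit of the ATP synthase, changed by 0.18 ± 0.06 and Atp5g3, one of 3 genes for its membrane ring, by 0.14 ± 0.05 (limma adjusted p = 0.0332 and 0.0453). Among the other called genes, Ndufs3, Ndufa9, Ndufb9 and Ndufv1 had log2 changes from 0.15 to 0.19. The other 3 genes of complex II had log2 changes of 0.12 to 0.13 and did not pass (limma adjusted p = 0.0771 for Sdhd, 0.0884 for Sdhc and 0.151 for Sdhb). The count of 13 fell to 5 without replicate 2 and to 3 without replicate 3. Single libraries moved it to between 5 (without dexamethasone replicate 2 or 3) and 29 (without dexamethasone replicate 1). It fell to 7 (6 higher, 1 lower), 6 and 6 without ethanol replicate 1, 2 and 3.

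In female cortex 0 of 86 members passed limma, against 4.42% of all genes. At an unadjusted p under 0.05 there were 3, against 21.4% of all genes. With edgeR 0 members were called against 4.11% of all genes, and with DESeq2 2 against 13%. The median log2 change was 0.08 (63 of 86 above 0), against 0.02 over all genes. Ndufs1 stood at 167, 160 and 186 RPM with ethanol and 225, 213 and 215 RPM with dexamethasone (log2 change 0.35 ± 0.09, limma adjusted p = 0.0864), and Sdha at 327, 306 and 335 against 383, 389 and 383 RPM (limma adjusted p = 0.133). In both genes every treated library was above every vehicle library. Same-numbered libraries of female cortex deviated together, and with the replicate number as a block 4 members passed limma, all higher, against 19.9% of all genes called higher: Ndufs1 (adjusted p = 0.00501), Ndufc2 (0.00991), Sdha (0.0142) and Ndufv2 (0.0454). Ndufc2 stood at 238, 211 and 235 RPM with ethanol and 333, 257 and 268 RPM with dexamethasone.

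**Figure D1:**
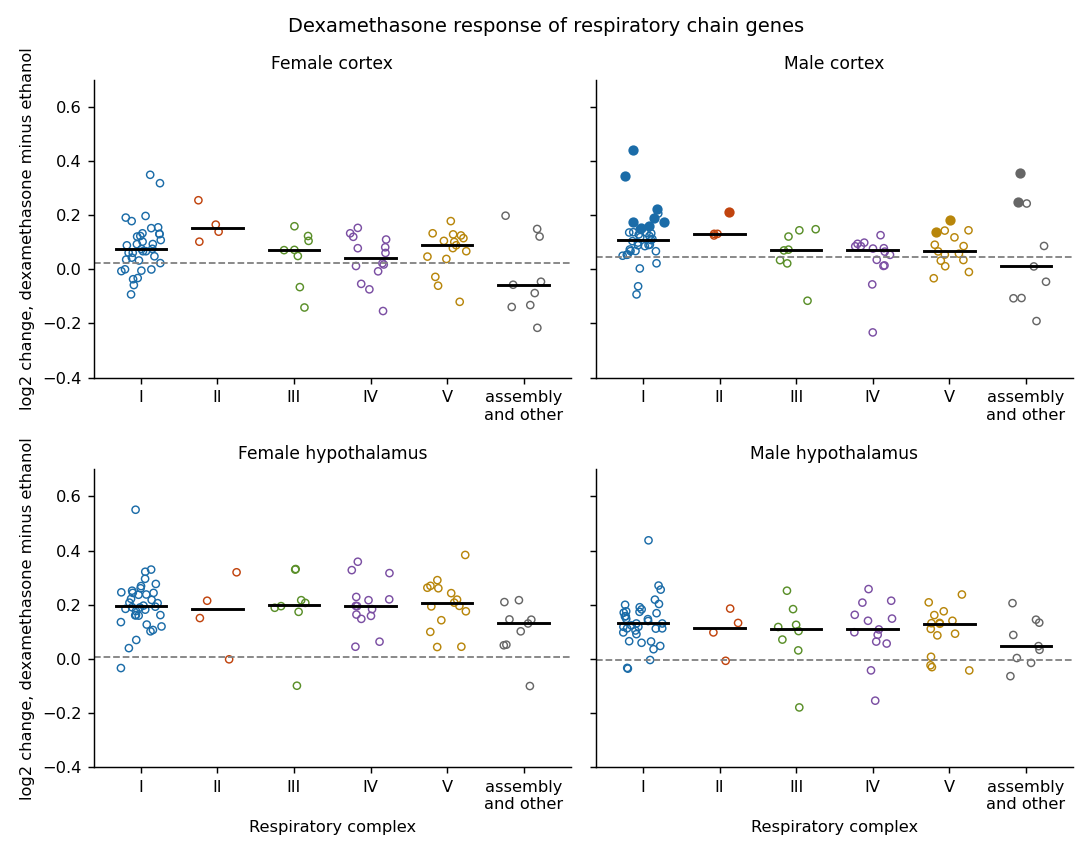
Dexamethasone response of each member in the 4 comparisons. The y axis is the log2 change, dexamethasone minus ethanol, on the log2(RPM + 1) scale (n = 3 against 3), the x axis the complex; each circle is 1 gene, filled where the limma adjusted p was under 0.05, bars are medians of a complex and the dashed line is the median of all genes tested. Filled circles occur in male cortex alone (13), and the hypothalamus medians of complex I to V lie at 0.18 to 0.21 in females and 0.11 to 0.13 in males.

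With both sexes fitted together on the common scale, 9 members rose in cortex and no member fell, against 34.5% of all genes called and 19% called higher. At an unadjusted p under 0.05 there were 18 members and 43.4% of all genes. Ndufs1 rose by 0.36 ± 0.07 (limma adjusted p = 0.000292), Ndufaf7 by 0.28 ± 0.06 (0.000961), Sdha by 0.24 ± 0.05 (0.00107) and Ndufc2 by 0.39 ± 0.09 (0.00316). These 4 passed in all 19 alternatives. Ndufs3, Ndufb3, Ndufv2, Atp5a1 and Ndufa9 also passed. The count went down to 4 without replicate 1 or 2 of female cortex or replicate 2 of male cortex, and to 5 without replicate 3 of male cortex. The fit covers all 24 libraries, and the count was 7 without replicate 2 of male hypothalamus.

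In the hypothalamus cultures most members had small positive log2 changes, and few single members passed limma without a replicate block. In female hypothalamus the median log2 change was 0.20 (82 of 86 above 0) against 0.01 over all genes tested, and in male hypothalamus 0.12 (73 of 85 above 0) against -0.00324. Without replicate 2 in both arms the male median was 0.124 and no member passed limma. No member passed limma in either table, against 0.841% and 0.226% of all genes. At an unadjusted p under 0.05 there were 18 of 86 and 5 of 85 members, against 8.91% and 7.74% of all genes. With edgeR 0 and 0 were called, against 0.737% and 0.169% of all genes, and with DESeq2 0 and 1, against 2.33% and 1.95%. In both tables same-numbered libraries deviated together, and with the replicate block 7 members rose in females and 9 in males, against 4.24% and 5.09% of all genes called higher.

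Ndufc2 again had the largest log2 change of the members in both tables. It stood at 167, 145 and 127 RPM with ethanol and 240, 241 and 169 RPM with dexamethasone in female hypothalamus, and at 157, 152 and 122 against 195, 201 and 185 RPM in male hypothalamus. Every treated library exceeded every vehicle library of its table. The log2 changes were 0.55 and 0.44, with limma adjusted p of 0.324 and 0.294 without the block and 0.00529 and 0.00233 with it. Atp5e, the small epsilon subunit of the ATP synthase rotor, and Cox7b, a structural subunit of complex IV, also passed in both tables with the block (Atp5e 0.38 and 0.21, limma adjusted p = 0.0162 and 0.0406; Cox7b 0.36 and 0.22, limma adjusted p = 0.0411 and 0.0375).

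**Figure D2:**
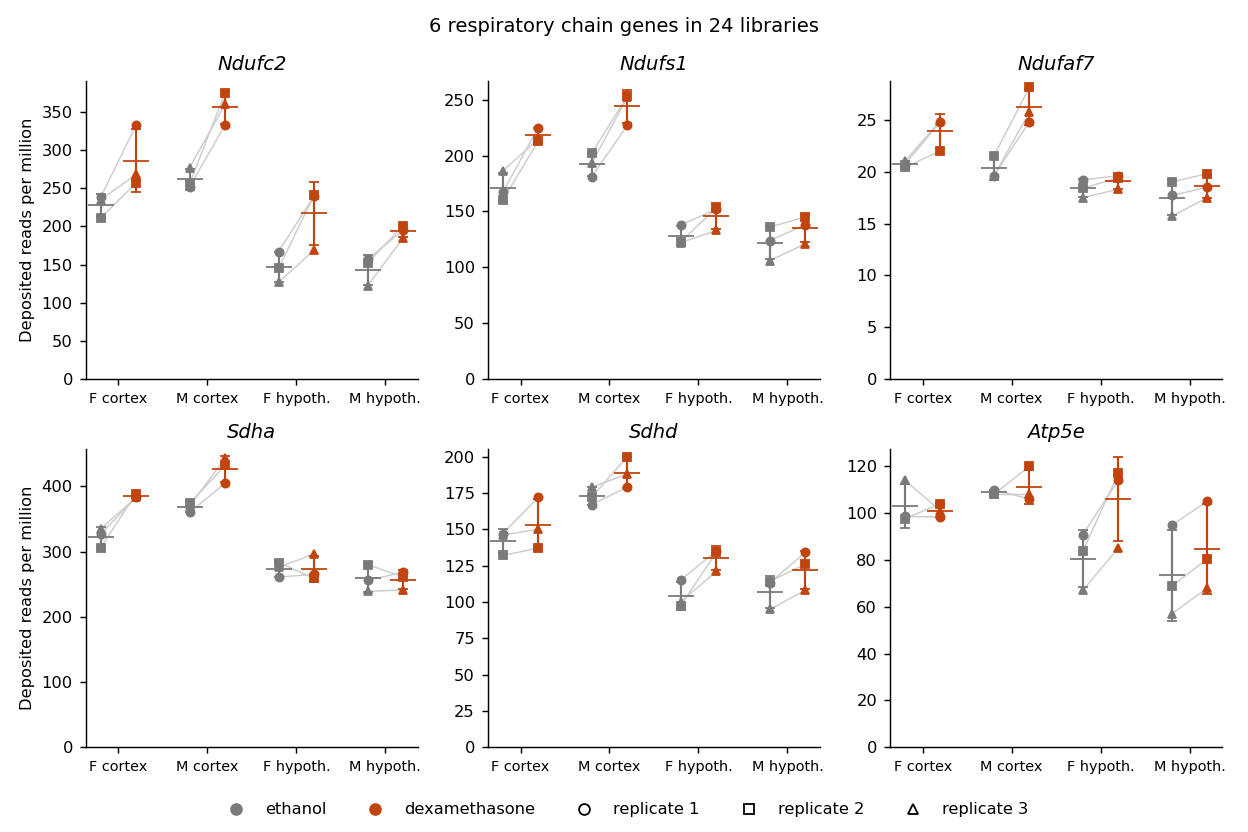
Deposited RPM (y axis, from 0) of 6 members in the 24 libraries, by region and sex (x axis). Grey marks ethanol and orange dexamethasone, the marker shape gives the replicate number, thin lines join libraries with the same number, and bars are the mean ± SD (n = 3); deposited values are scaled separately by region, so levels are compared within a table only. Treated Ndufc2 libraries lie above vehicle libraries in each of the 4 tables, whereas Sdha is raised in cortex and overlaps in hypothalamus.

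Fitted over both sexes, the members in hypothalamus had a median log2 change of 0.16 (80 of 86 above 0), against a median of -0.000261 with 6941 of 13932 genes above 0. Of the members 6 rose past limma and no member fell, against 5.3% of all genes called and 3.01% called higher. An unadjusted p under 0.05 was found for 43 of 86 members and for 20.4% of all genes. Ndufc2 rose by 0.49 ± 0.09 (limma adjusted p = 0.0029), a 1.41-fold change. Uqcrb, a small subunit of complex III (chromosome 13, 66900617 to 66905378), rose by 0.29 ± 0.08 (0.0398 in limma). Sdhd, a membrane anchor of complex II (chromosome 9, 50596357 to 50603812), rose by 0.25 ± 0.07 (0.0472 in limma), and the complex I subunits Ndufb5, Ndufb2 and Ndufv2 by 0.25 each (0.0251 to 0.0328).

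Sdhd stood at 115, 97.4 and 100 RPM with ethanol and 135, 134 and 121 RPM with dexamethasone in female hypothalamus, and at 113, 114 and 94.8 against 134, 126 and 108 RPM in males. The female groups did not overlap and the male groups did. With the culture as a block 56 of 86 members rose (65.1%), against 14.5% of all genes called higher: 26 of 36 in complex I, 3 of 4 in complex II, 6 of 8 in complex III, 9 of 14 in complex IV, 10 of 15 in complex V and 2 of 9 assembly proteins. That fit includes the male cortex libraries, whose same-numbered libraries correlated at only 0.0208 to 0.391. Without the block the count of 6 went to 1 without replicate 2 of male hypothalamus, the culture with the intermediate Xist level, and to 1 without replicate 2 of female hypothalamus; it was 2 or 3 without replicate 1 of either hypothalamus group or any male cortex culture. The median of 0.16 changed little, to 0.15 without either replicate 2.

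Other short transcripts had positive median changes in hypothalamus too. Among all protein-coding genes the median log2 change with dexamethasone was 0.17 for transcripts up to 0.5 kb, 0.11 for 0.5 to 1 kb, 0.04 for 1 to 2 kb, 0.01 for 2 to 4 kb and -0.05 above 4 kb. The members' medians in the first 4 classes were 0.167, 0.164, 0.175 and 0.142 (13, 39, 24 and 9 members). Cytosolic ribosomal proteins (91 genes tested) had a median of 0.17 with 2 higher, and mitochondrial ribosomal proteins (75 genes) a median of 0.135 with 1 higher. In cortex the class medians of all protein-coding genes were 0.03, 0.03, 0.02, 0.04 and 0.08, and those of the members 0.06, 0.08, 0.11 and 0.17. The part of transcript length in the members' values was not tested.

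**Figure D3:**
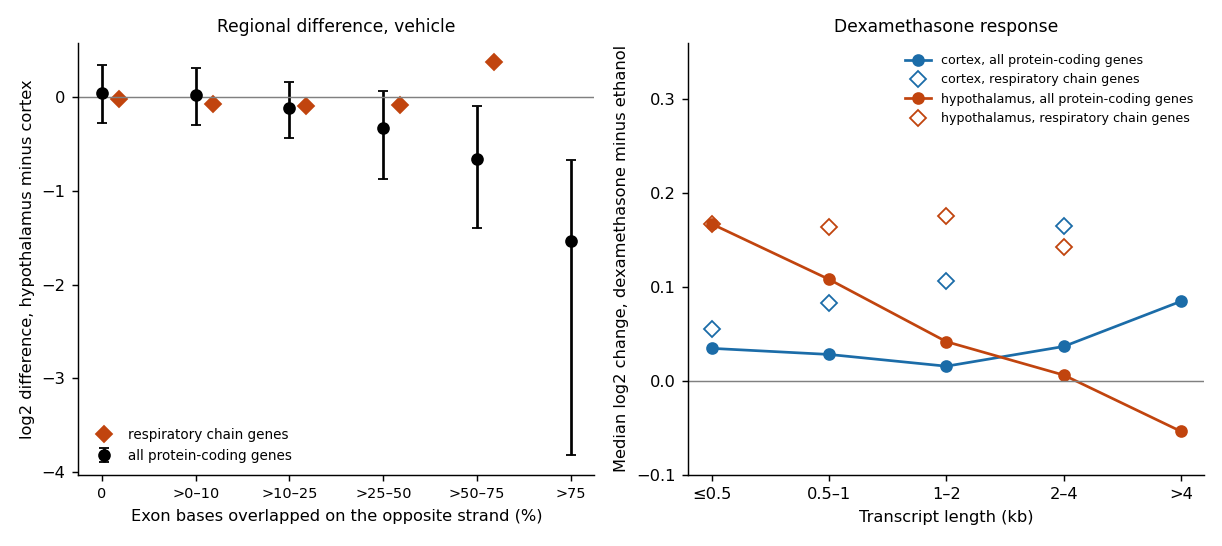
Left: log2 difference between regions in vehicle libraries (y axis) by the share of exon bases that another gene's exons cover on the opposite strand (x axis, percent); black points are medians of all protein-coding genes with quartiles, and orange diamonds are medians of the members. Right: median log2 change with dexamethasone by transcript length (x axis, kb) for all protein-coding genes (filled) and members (open). At left the medians of all genes fall from 0.05 to -1.54, and at right the hypothalamus medians of all genes fall from 0.17 to -0.05 while those of the members stay at 0.142 to 0.175.

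Only 2 of the 85 members tested in all 4 tables were below 0 in each, and 55 were above 0 in each. The share of all genes above or below 0 in all 4 tables was not computed, so these counts have no background. Of all genes tested 7121 of 13314 were above 0 in female cortex and 7393 of 13205 in male cortex. The 2 members below 0 were Ndufab1, the mitochondrial acyl carrier protein that is also a subunit of complex I, and Uqcrq, a small subunit of complex III. Uqcrq had log2 changes of -0.14, -0.12, -0.10 and -0.18 in female cortex, male cortex, female hypothalamus and male hypothalamus. None of these passed limma (lowest adjusted p = 0.231), and groups overlapped in the values: in male cortex it stood at 110, 126 and 116 RPM with ethanol and 98.6, 119 and 108 RPM with dexamethasone.

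A difference between the sexes in the dexamethasone response was not detected for any member. In cortex and in hypothalamus 0 of 86 members passed the limma interaction test, 0 and 0 had an unadjusted p under 0.05 (1.24% and 0.257% of all genes), and edgeR and DESeq2 called 0 in each, against 0% of all genes in both regions. The median of the difference, male minus female response, was -0.0168 in cortex and -0.0785 in hypothalamus, the latter with 11 of 86 members above 0. Without replicate 2 of male hypothalamus the latter median was -0.075, and 0 of 86 members passed limma. The median standard error of a member was 0.126 in cortex and 0.164 in hypothalamus. A difference has to be well above its standard error to pass the adjusted threshold, so differences larger than these values could also be missed.

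Between regions, the response of 1 of 86 members, Sdha, differed past limma without the block, against 13.9% of all genes. At an unadjusted p under 0.05 there were 4 members and 26.7% of all genes. With edgeR 0 members were called against 12.2% of all genes, and with DESeq2 1 against 15.3%. The fit with the culture as a block includes the male cortex libraries, whose same-numbered libraries correlated weakly. In that fit 11 members differed, 8 higher and 3 lower, against 38.9% of all genes. Atp5e had the lowest adjusted p there (0.28 ± 0.06, limma adjusted p = 0.00203), and the 3 lower were Sdha, Ndufaf7 and Ndufs1 (-0.25, -0.21 and -0.19). On the common scale Sdha stood at 239 to 304 RPM (median 280) in 6 vehicle and 307 to 357 RPM (median 322) in 6 dexamethasone libraries of cortex. In hypothalamus it stood at 302 to 357 RPM (median 336) and 300 to 373 RPM (median 333). The cortex groups did not overlap, whereas the hypothalamus groups overlapped. The response in hypothalamus minus that in cortex was -0.25 ± 0.07 (limma adjusted p = 0.0277). It did not pass without replicate 2 of female cortex, any male cortex replicate, or replicate 2 of female or male hypothalamus, though it was negative in all 19 alternatives (-0.278 to -0.208). The other genes of complex II did not share this: Sdhd had a difference of 0.13 ± 0.10 (limma adjusted p = 0.474).

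**Figure D4:**
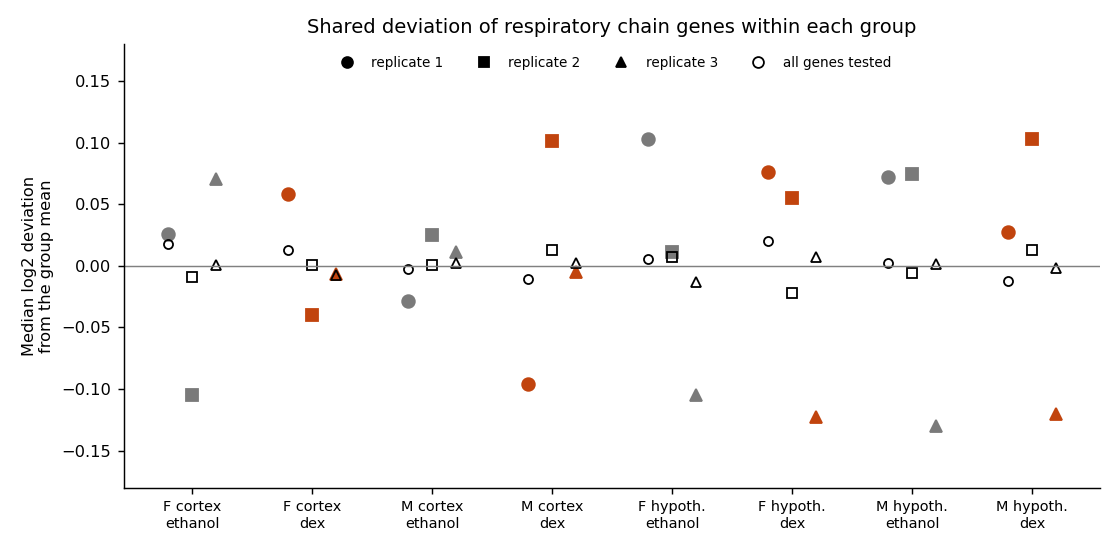
Median log2 deviation of the 86 members from the mean of their own group (y axis, common scale) for each of the 24 libraries, by group (x axis). Filled markers are the members (grey ethanol, orange dexamethasone), open markers all genes tested, and shapes the replicate number. Replicate 3 of hypothalamus lies at -0.105 to -0.13 in all 4 groups, and dexamethasone replicates 1 and 2 of male cortex lie at -0.0956 and 0.101, while all genes tested stay between -0.0217 and 0.0203.

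Within groups many members deviated together from library to library. In male cortex with dexamethasone, replicate 1 had 0 of 86 members above the group mean and replicate 2 had 85 of 86. In hypothalamus, replicate 3 had 10 and 12 of 86 members above the group mean in females (ethanol and dexamethasone) and 4 and 12 in males. The members' median deviations of -0.13 to 0.103 were of the size of their median responses, 0.08 to 0.20, whereas those of all genes tested stayed between -0.0217 and 0.0203. The part of these deviations in the results was not tested.

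In vehicle libraries single members differed between the regions in both directions. On the common scale 10 of 86 members were higher in hypothalamus and 18 were lower, 11.6% and 20.9%, against 28.1% and 28.2% of all genes. An unadjusted p under 0.05 was found for 33 of 86 members and 61.4% of all genes. The median difference, hypothalamus minus cortex, was -0.04 against 0.01 over all genes tested. In complex I 2 were higher and 10 lower, in complex IV 1 and 5, in complex V 1 and 2; in complex II 1 was higher and in complex III 1 lower. Of the 9 assembly and other proteins 5 were higher, with a median of 0.28.

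Cox5a, a matrix-side subunit of complex IV (chromosome 9, 57521274 to 57532426), stood at 148, 102 and 130 RPM in female and 159, 169 and 173 RPM in male cortex. In hypothalamus it stood at 35.2, 37.3 and 33 RPM in females and 36.8, 40.2 and 36.7 RPM in males. The regions did not overlap, with a difference of -1.96 ± 0.08 (limma adjusted p = 1.58e-08). Ndufb6, a membrane-arm subunit of complex I (chromosome 4, 40270591 to 40279421), stood at 49.9 to 76 RPM in cortex and 23.4 to 29.3 RPM in hypothalamus, a difference of -1.31 ± 0.08 (limma adjusted p = 3.36e-07). Cox5b, the zinc-binding partner of Cox5a in complex IV (chromosome 1, 36691449 to 36693681), was at 88.1 to 105 RPM in cortex and 56.9 to 68.6 RPM in hypothalamus (-0.60 ± 0.07, limma adjusted p = 1.91e-05). Uqcrq (chromosome 11, 53427922 to 53430831) was at 72.6 to 103 RPM and 50.6 to 69.1 RPM (-0.55 ± 0.08, limma adjusted p = 0.000156).

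Smaller decreases were found for Cox8a of complex IV (-0.38 ± 0.07), Atp5d, the delta subunit of the ATP synthase rotor (-0.34 ± 0.05), Ndufa6 (-0.34 ± 0.09) and Atp5g2, a second gene of the membrane ring (-0.33 ± 0.08), with limma adjusted p of 0.000501, 0.000308, 0.00902 and 0.00371. The other ring genes Atp5g1 and Atp5g3 had differences of 0.01 each. Near-identical copies of Atp5g2 in the annotation reached 3.35 RPM, so its reads may be split. Ndufs7, a core subunit of the peripheral arm, was lower by a log2 difference of -0.30 ± 0.06 (limma adjusted p = 0.00159).

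Among isoforms of complex IV, Cox6a1 and Cox4i1 were lower in hypothalamus (-0.22 ± 0.07 and -0.18 ± 0.07, limma adjusted p = 0.0169 and 0.0457) and Cox7a2, the widely expressed relative of Cox7a1, was higher (0.23 ± 0.08, limma adjusted p = 0.0356). Cox6b2, a testis-enriched form, stood at 22.1 ± 6.58 RPM per kilobase in cortex and 14.8 ± 6.84 in hypothalamus (SD, n = 6), far below its relative Cox6b1 at 325 ± 23.2 and 347 ± 29.9. Neither Cox6b gene passed limma between regions (adjusted p = 0.0532 and 0.232), nor did Ndufa4 (0.126) or Cox7a2l, a factor in supercomplexes (0.177). In hypothalamus over both sexes the log2 changes with dexamethasone were 0.27 ± 0.08 for Cox7a2, 0.24 ± 0.08 for Ndufa4, 0.23 ± 0.10 for Cox7a2l, 0.17 ± 0.06 for Cox6b1, 0.13 ± 0.07 for Cox6a1 and -0.05 ± 0.26 for Cox6b2, and these did not pass limma (lowest adjusted p = 0.0731).

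The 10 members higher in hypothalamus included 4 assembly factors of complex I, Ndufaf1, Ndufaf2, Ndufaf4 and Ndufaf7. Ndufaf4 (chromosome 4, 24898083 to 24905001) stood at 41.5, 20.8 and 25.3 RPM in female and 43.9, 45.7 and 45.8 RPM in male cortex, and at 71, 44.3 and 68.1 RPM in female and 65.4, 74.3 and 67.6 RPM in male hypothalamus. The lowest hypothalamus library overlapped the upper cortex libraries, and the difference was 0.84 ± 0.16 (limma adjusted p = 0.000985). Ndufaf7 was at 15.9 to 17.5 RPM in cortex and 19.9 to 24.2 RPM in hypothalamus, without overlap (0.42 ± 0.07, limma adjusted p = 0.000289). Sdha was higher by 0.26 ± 0.05 and Ndufs4, an accessory subunit of the peripheral arm, by 0.315 ± 0.0757 (limma adjusted p = 0.00175 and 0.00426), with overlapping regions in both.

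The median had opposite signs in the sexes. In female cultures alone 6 of 86 members were higher and 3 lower in hypothalamus, against 28.8% of all genes called in either direction. The median was 0.08 (0.0174 over all genes). In male cultures alone 2 of 86 were higher and 23 lower, against 48.4% of all genes called. The median was -0.16 (-0.00404 over all genes). The sexes' difference was not tested. Cox5a, Cox5b, Ndufb6, Ndufaf4 and Ndufaf7 passed in all 21 alternatives, and all 28 called members kept their direction. Without replicate 2 of male hypothalamus with ethanol 24 members passed (7 higher, 17 lower).

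**Figure D5:**
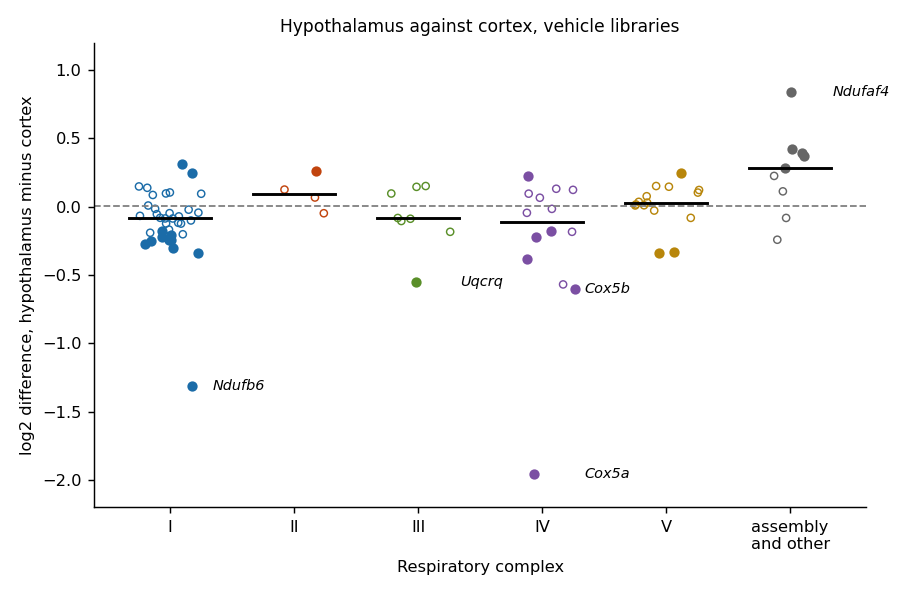
Log2 difference of each member between hypothalamus and cortex in vehicle libraries (y axis, 6 libraries a region, sexes weighted equally) by complex (x axis). Filled circles passed limma at an adjusted p under 0.05 (10 higher, 18 lower), bars are medians and the dashed line is the median of all genes tested. Cox5a at -1.96 and Ndufb6 at -1.31 lie farthest from 0, and Ndufaf4 at 0.84 is the highest.

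The regional difference also moved with exon overlap on the opposite strand. Over protein-coding genes the median difference was 0.05 without overlap, 0.02 with up to 10%, -0.12 with 10% to 25%, -0.33 with 25% to 50%, -0.66 with 50% to 75% and -1.54 above 75% (31 genes). The sources used here do not state whether counting used strand, so reads of such genes are uncertain. Smim27 exons cover 39% of Ndufb6 and Gm26631 exons 12.8% of Cox5a, while Cox5b, Uqcrq, Cox8a, Ndufaf4, Ndufaf7 and Sdha have no such overlap. Counting members without overlap alone, 9 of 58 were higher and 11 lower, and with an overlap 1 of 27 was higher and 7 lower. The higher one was Ndufaf2 (0.37 ± 0.09, limma adjusted p = 0.00433), whose exons are covered to 65.7% by B230220B15Rik, the only member in the class of 50% to 75%.

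Genes that work with the members were counted in the same comparisons. Of 12 tested subunits encoded in mitochondrial DNA, 7 fell and 1 rose with dexamethasone in male cortex, against 20.9% of genes called lower. mt-Nd4 fell by 1.14 (limma adjusted p = 3.25e-07) and mt-Nd2 by 0.965 on the log2 scale (7.44e-07 in limma), both core subunits of complex I, and mt-Nd6, the only one encoded on the light strand, rose by 0.55 (0.00205 in limma). The share of mt-Rnr2 in the same libraries was 1.84% to 2.17% with ethanol and 1.09% to 1.31% with dexamethasone, and its part in these changes was not tested. The nuclear subunits of complex I had a median change of 0.11 there. In female cortex and in hypothalamus over both sexes the medians of the mitochondrially encoded subunits were -0.13 and -0.0281, and in each 3 of 12 had an unadjusted p under 0.05 but did not pass the adjusted limma threshold. In vehicle libraries 11 of the 12 were higher in hypothalamus, against 28.1% of all genes called higher. Their median was 0.82, in the same libraries in which mt-Rnr2 was high.

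Among 12 regulators, Yy1 fell in both sexes of cortex, from 129, 121 and 113 to 85.4, 76.5 and 79.4 RPM in females (log2 change -0.58 ± 0.09, limma adjusted p = 0.0325) and from 119, 122 and 129 to 83.3, 87 and 82.1 RPM in males (-0.55 ± 0.05, limma adjusted p = 2.59e-05). In hypothalamus over both sexes its change was -0.07 ± 0.07, and the difference between regions was 0.48 ± 0.11 (limma adjusted p = 0.00479). Pprc1, a co-activator of the PGC-1 family, fell in male cortex from 52.2, 50 and 50.8 to 21.7, 21.7 and 23.5 RPM (-1.16 ± 0.06, limma adjusted p = 6.2e-07). Gabpb1, Tfam (the mitochondrial transcription factor) and Esrra also fell there and Gabpa, the DNA-binding part of GABP, rose by 0.25 ± 0.06, 5 lower and 1 higher of 12 in all, a share of 50% near the 47.6% of all genes called. Nrf1 and Ppargc1a (PGC-1 alpha) had changes of -0.00178 and 0.04 in cortex over both sexes and did not pass limma (adjusted p = 0.99 and 0.879). The other co-activator Ppargc1b and the mitochondrial transcription genes Tfb1m, Tfb2m and Polrmt had changes of 0.26, 0.17, -0.05 and 0.12 there and did not pass (limma adjusted p of 0.276 to 0.687). In vehicle libraries Tfb1m, Ppargc1a and Gabpa were higher in hypothalamus (0.65, 0.62 and 0.36) and Esrra, Yy1 and Gabpb1 lower (-0.66, -0.54 and -0.29).

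Of 16 genes of the TCA cycle and pyruvate dehydrogenase 6 rose in male cortex (37.5%, against 26.7% of all genes), among them Sucla2, a subunit of succinyl-CoA synthetase (0.32 ± 0.06, limma adjusted p = 0.00139). Pdk4, a kinase that shuts off pyruvate dehydrogenase, rose by 1.67 ± 0.34 (limma adjusted p = 0.0026), from low levels of 1.21, 2.82 and 2.8 RPM. In the same list of 6 kinases and phosphatases the mean of Pdk1 went from 90.5 to 66.5 RPM. Pdp1 went from 18.9 to 12.1, Pdp2 from 29.1 to 28.5, Pdk2 from 9.33 to 11.2 and Pdk3 from 19.3 to 23.9 RPM. Of 8 complex I assembly genes without the Nduf prefix 3 rose, with Tmem126b at 0.52 ± 0.08, and 1 fell. That share of 50% was near the 47.6% of all genes called. Of 19 complex IV assembly genes, 36.8% were called against 47.6% of all genes: 5 rose and 2, Sco1 and Sco2, both copper chaperones, fell by 0.382 and 0.35 on the log2 scale (limma adjusted p = 0.00119 and 0.0284). Of the ribosomal proteins, 12 rose and 5 fell among 75 mitochondrial ones and 4 rose and 14 fell among 91 cytosolic ones in male cortex, 22.7% and 19.8% called against the same 47.6%.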

How the data were processed

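RNA of 24 neurosphere libraries (8 groups, 3 replicates each, 2 lanes a library merged) was analysed from 4 tables of 38924 gene entries, of which 38920 with a unique name were kept. The authors aligned reads with TopHat2 (2.0.13 and 2.0.9) and counted with HTSeq on GRCm38, per the submitters' processing notes; which version served which library, the annotation and the strand setting are not stated there. The deposited signal values are RPM (reads-per-million) scaled by the authors, and 100% of values came out as whole reads within 0.01 read; on these reads edgeR called 547, 6049, 92 and 21 genes in female cortex, male cortex, female hypothalamus and male hypothalamus, and limma 588, 6279, 105 and 28. The authors' fold ratio is from edgeR, per the file headers, and the authors' deposited log2 fold changes, p-values and FDR stand beside it. They were not used for tests. At a deposited FDR under 0.05, 0 of 86 members were called in each of the 4 comparisons, male cortex included. The same FDR called 5.33% and 5.99% of all entries in female and male cortex, and 0.486% and 0.414% in female and male hypothalamus.

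Tests were limma 3.58.1 (trend, R 4.3.3) on log2(RPM + 1) of genes reaching 1 RPM in 3 libraries or more, Benjamini-Hochberg over all genes tested, threshold 0.05. Fits over regions or sexes used recovered reads scaled by TMM. Alternatives were edgeR 4.0.16, DESeq2 1.42.0, other scalings, pseudocount 0.5, left-out libraries and a replicate block, and the fits were tested on simulated data. Same-numbered libraries correlated in their deviations from group means at 0.494 to 0.872 in female cortex and both hypothalamus tables, so numbers were taken to pair them. In male cortex the correlations were 0.0208 to 0.391, and numbers were not taken to pair. There replicates 1 and 3 correlated best with their own number and replicate 2 did not (0.0208 against 0.034). These decisions rested on the same data as the tests. The sample codes of same-numbered cortex libraries share a letter and first digit in males as in females, so male cortex libraries may also be paired. Reads in genes ranged from 16.04 to 25.49 megareads, and this count limits low genes only by counting error. Genes were named by size of change within each complex, with complex II, the isoform families and the regulators added, in the comparisons that the text describes; others were chosen after their values were seen. Members and lists were chosen with earlier results of these data known. Single values of a few genes that entered the counts are not reported here.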

Additional observations from a re-analysis of the deposited data

Results flagged for a closer look

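The response of Sdha to dexamethasone differed between the regions by a test of the difference itself, with a value of -0.249 (hypothalamus minus cortex, log2, limma adjusted p = 0.0277). It was 0.24 ± 0.05 in cortex and -0.00565 ± 0.0517 in hypothalamus. The other complex II genes had differences of 0.03 (Sdhb), -0.03 (Sdhc) and 0.13 (Sdhd), which did not pass.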

How the results depend on the processing

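Counts of called members depended on the test and the libraries kept, and each called member kept its direction in the alternatives run for it. Medians near 0 did not: the median difference between the sexes in cortex response, -0.0168, ranged from -0.0752 to 0.0208 with libraries left out, and the regional median was 0.0833 in females alone and -0.16 in males alone. In female cortex DESeq2 called 2 members and 13% of all genes, the replicate block 4 and 38.1%, and limma without it 0 and 4.42%. In male cortex (13, against 47.6% of all genes) the count was 8 without a filter, against 27.2%. It was 6 (5 higher, 1 lower) with reads outside ribosomal-RNA-like entries as library size, against 45.3%. With edgeR it was 7 (6 higher, 1 lower) against 45.8%, and with DESeq2 4 against 40.4%. Libraries left out gave 3 to 29, against 32.7% to 44.5%. The replicate block gave 20 (19 higher, 1 lower) there against 52%, though the numbers were not taken to pair. The lower one in the block was Cox6b2 (-0.233, limma adjusted p = 0.0363). In female hypothalamus the block gave 7 against 7.14% of all genes, where limma without it gave 0. In male hypothalamus DESeq2 gave 1 against 1.95% and the block 9 against 13.1%, where limma without it gave 0. For the regional difference in response (1) edgeR gave 0 against 12.2% of all genes and the block 11 against 38.9%. Left-out libraries gave 0 to 1 against 9.11% to 15.6%. In cortex over both sexes (9, against 34.5% of all genes) the count was 5 with DESeq2 size factors, against 33.8%. It was 4 with the ribosomal-RNA-like entries outside the library size and 4 with edgeR, against 32.1% and 33.7%. Libraries left out gave 4 to 13, against 26% to 35.2%. The block gave 35 (40.7% of members), below its 56.8% of all genes. Of these 34 were higher and 1, Cox6b2, lower (-0.182, limma adjusted p = 0.0372). In hypothalamus over both sexes (6, against 5.3% of all genes) the count was 3 without a filter and 3 with those entries outside, against 2.38% and 5.8%. It was 15 with DESeq2 and 56 with the block, against 8.12% and 29.4%. Libraries left out gave 1 to 9, against 2.71% to 8.36%. Between regions in vehicle (28) female cultures alone gave 9 against 28.8% of all genes. Libraries left out gave 22 to 31 there, against 50.5% to 62.3%. The block changed no other count by over 1.5 times, and the cause of these shifts was not tested. With 3 libraries a group, log2 changes near the standard errors given were not detectable, and larger ones could be missed.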
